A study of Mus musculus with 24 samples.

Results

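Genes whose symbol in the platform annotation begins with Kcn were taken as the potassium channel genes of the mouse striatum. They numbered 88 of the 19057 genes that had a probe with a single symbol, and 70 of the 88 lay above a filter on dim probes and were tested among 13748 genes. Where a gene had several probes, the one with the highest mean of the deposited log2 values over all 24 arrays stood for it. By class, the tested members were 29 of 35 pore-forming subunits of voltage-gated channels, 10 of 12 accessory subunits of voltage-gated channels, 10 of 13 inward rectifiers, 8 of 11 subunits of calcium- or sodium-activated channels, 11 of 14 two-pore channels and 2 of 3 others. Classes followed the symbols, so the calcium- or sodium-activated class held Kcnu1, whose channel is not known as one that these ions activate. The symbol also brought in genes that encode no channel subunit, namely Kcnrg, a regulator of channel assembly, and the noncoding RNAs Kcnq1ot1 and Kcnmb4os1.

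The series compared long-term drinking of morphine, an opioid agonist, with long-term drinking of saccharin, a sweet control drink, in C57BL/6J mice aged 6 to 10 weeks. The striatum was taken 4 h after an injection of morphine (20 mg/kg, intraperitoneal) or saline (10 ml/kg), which gave 4 groups of 6 arrays. The groups were morphine drinkers injected with morphine (MOR_MOR), morphine drinkers injected with saline (MOR_SAL), saccharin drinkers injected with morphine (SACH_MOR) and saccharin drinkers injected with saline (SACH_SAL). Every group had a drink and an injection, and none was untreated. The dose and length of drinking, and whether an array carried RNA of more than 1 animal, are not given in the sources used here, so p-values measure the spread between these arrays. The arrays lay on 6 chips with 1 array of each group on each chip.

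Potassium channels let potassium ions leave the cell and so oppose excitation. In striatal medium spiny neurons, inward rectifiers hold the membrane at a negative resting potential, and voltage-gated channels of the Kv1 and Kv4 families delay and space action potentials. G protein-gated inward rectifiers are opened by the Gi/o proteins to which opioid receptors couple, two-pore channels carry leak current, and calcium-activated channels follow calcium entry.

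The median raw intensity of an array lay between 164 and 543, and after normalization no pair of arrays correlated below 0.937. Levels are log2 intensities. Differences are log2 differences, each with its standard error (SE), whose median over all genes was 0.142 between 2 groups. A member was called where its p, adjusted by Benjamini-Hochberg over all 13748 genes, was under 0.05 in limma. Arrays mor_in_31 (MOR_MOR) and mor_32 (MOR_SAL), both on chip 2, stood apart from the other 22. Their mean over 8 tested markers of medium spiny neurons was 9.84 and 9.79, against 12.42 to 13.43 elsewhere, and their mean over 6 markers of cortical projection neurons was 11.31 and 11.2, against 8.77 to 11.02. Counts of calls are therefore given with all 24 arrays and with those 2 left out. A difference of a single gene is over all 24 arrays where nothing else is said.

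Kcna5 was the single channel gene that passed the test in any comparison, and it did so with mor_in_31 and mor_32 left out. It encodes Kv1.5, a delayed rectifier subunit best known from the atrium of the heart and from vascular smooth muscle. Kcna5 was represented by a single probe above the filter. Its level was 1.55-fold higher after morphine than after saline on the 22 arrays, averaged over both drinks. Kcna5 is described first for this reason, and it was chosen after its values were seen. Its promoter is shown because this was the gene called, as RefSeq gives it on build GRCm38.p6 at chr6:126535506-126535805, minus strand. The window runs from 250 bases before the transcription start to 50 after it, and the capitals mark a match to the textbook glucocorticoid response element.
Kcna5 promoter: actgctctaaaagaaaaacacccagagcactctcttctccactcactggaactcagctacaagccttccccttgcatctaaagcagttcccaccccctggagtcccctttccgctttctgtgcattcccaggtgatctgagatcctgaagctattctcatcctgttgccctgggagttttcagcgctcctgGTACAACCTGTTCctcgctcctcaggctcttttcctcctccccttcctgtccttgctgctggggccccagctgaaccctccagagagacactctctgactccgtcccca

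The letters searched, on both strands, were GNACA and TGTNC with any 3 bases between them, and the element was chosen with this promoter in view. It was picked because glucocorticoids are known to raise Kcna5 mRNA in rat pituitary cells. The match in Kcna5, GTACAACCTGTTC, begins 59 bases before the start at chr6:126535602-126535614. The letters occurred in 1 of the 92 promoter windows of the 67 members that had an entry, and in 156 of all 32851 windows (0.475%). The cAMP response element, TGACGTCA, occurred in 0 of the 92 member windows and in 1.79% of all windows. The match is a description of these letters and not evidence of binding.

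In saccharin drinkers, Kcna5 stood at 8.80, 8.94 and 9.57 (lowest, median and highest) in SACH_MOR arrays, against 7.92, 8.58 and 8.75 in SACH_SAL arrays. Every SACH_MOR array was above every SACH_SAL array. Of all genes tested, 0.589% had groups that did not overlap in this comparison (0.466% with the injected group higher), and Kcna5 was the only member of the 70 among them. The difference was 0.56 (SE 0.312, adjusted p = 0.715 in limma) with all 24 arrays and 0.56 (SE 0.156, adjusted p = 0.203) with the 2 arrays left out. The saccharin arrays were the same in both fits. The SE fell because the 4 groups share an estimate of spread per gene, and that of Kcna5 shrank without the 2 arrays. The injected array was the higher on 6 of 6 chips, by 0.10 to 0.92. Of all genes tested, 4.75% had 1 direction on every chip in this comparison.

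In morphine drinkers, Kcna5 stood at 6.82, 8.84 and 9.49 in MOR_MOR arrays, against 7.0, 8.17 and 8.60 in MOR_SAL arrays. The groups overlapped, and the lowest array of each was the one on chip 2. Without mor_in_31 and mor_32, the MOR_MOR arrays read 8.26, 8.72, 8.97, 9.20 and 9.49, against 7.65, 7.88, 8.45, 8.56 and 8.60 for the MOR_SAL arrays. These still overlapped, since 8.26 lay among the saline values, but the injected array was the higher on all 5 remaining chips. On chip 2 the injected array was the lower, at 6.82 against 7.0. Of all 13748 genes, 1324 had 1 direction on all 5 remaining chips, as did 13 of the 70 members. The difference of Kcna5 was 0.55 (SE 0.312, adjusted p = 0.858 in limma) with all arrays and 0.70 (SE 0.171, adjusted p = 0.288) without the 2 arrays.

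**Figure D1:**
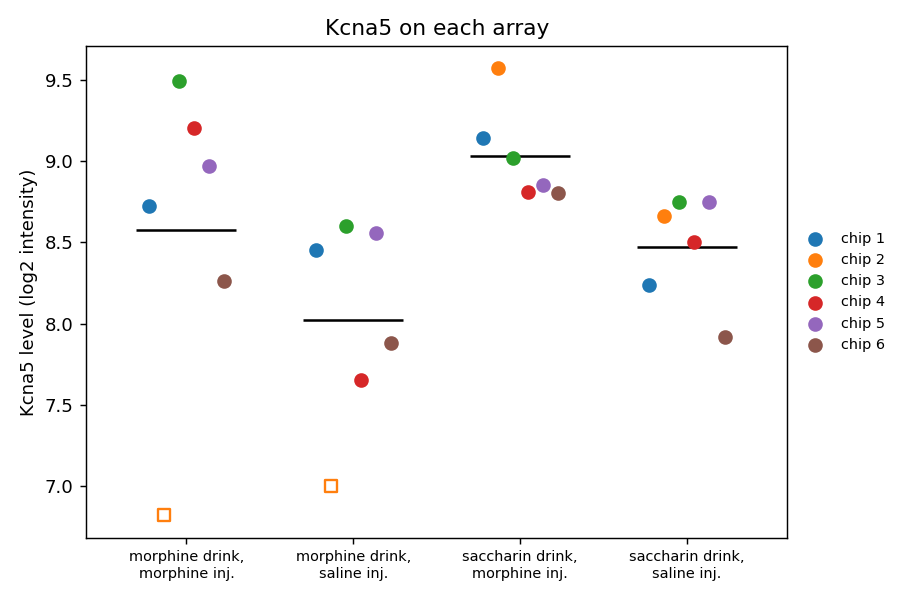
Kcna5 level (log2 intensity, vertical axis) on each of the 24 arrays by group, with colours for the 6 chips, horizontal lines for group means over 6 arrays and open squares for mor_in_31 and mor_32. All SACH_MOR arrays lie above all SACH_SAL arrays, and the open squares at 6.82 and 7.0 are the lowest of the 24.

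Averaged over drinks, the injection difference of Kcna5 was 0.56 (SE 0.221, adjusted p = 0.475 in limma) with all 24 arrays. Without mor_in_31 and mor_32 it was 0.63 (SE 0.115, adjusted p = 0.0131 in limma), so the call rests on leaving them out. It was also called with the whole of chip 2 left out, at 0.59 (SE 0.12, adjusted p = 0.0366 in limma). With 1 further array of the 22 left out it was called in 22 of 22 fits, at 0.55 to 0.67. The difference between the injection responses of morphine and saccharin drinkers was -0.01 (SE 0.441, adjusted p = 0.999) with all arrays and 0.14 (SE 0.231, adjusted p = 0.95) without the 2, so it was not resolved. Markers of medium spiny neurons did not pass the test in the averaged comparison on the 22 arrays (0 of 8), and their mean ranged from 12.71 to 13.34 in MOR_MOR, 12.84 to 13.25 in MOR_SAL, 12.76 to 13.43 in SACH_MOR and 12.42 to 13.24 in SACH_SAL. Of the other marker lists, the astrocyte connexin gene Gjb6 rose by 0.62, the oligodendrocyte factor gene Sox10 fell by 0.36 and the microglial receptor gene Cx3cr1 fell by 0.46 on the same arrays; each was the only member of its list that passed. The median differences of the whole lists in that comparison were 0.1 for astrocytes, 0.03 for oligodendrocytes and -0.01 for microglia. The part of these markers in the Kcna5 result was not tested. In bulk tissue, fewer cells of a type and less RNA per cell cannot be told apart.

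No channel gene passed the test for the injection with all arrays. With all 24 arrays, 0 of 70 members were called in saccharin drinkers, where 0.371% of all genes were called in limma, and 4 members had an unadjusted p under 0.05 (5.71%, against 7.69% of all genes). In morphine drinkers 0 members were called against 0.0655% of all genes, and 6 had an unadjusted p under 0.05 (8.57%, against 6.36%). Averaged over drinks 0 members were called against 0.691% of all genes, and 8 had an unadjusted p under 0.05 (11.4%, against 8.29%). Without mor_in_31 and mor_32 the members called were 0, 0 and 1, against 0.436%, 0.0873% and 0.713% of all genes. Those with an unadjusted p under 0.05 were then 7, 8 and 6, against 9.38%, 7.09% and 9.16% of all genes. The median difference over the 70 members was -0.03 with all arrays in each of these comparisons, against -0.01 to 0 over all genes. Without the 2 arrays the averaged injection comparison had a median of -0.04 for pore-forming subunits of voltage-gated channels, 0.03 for accessory subunits, -0.07 for inward rectifiers, -0.06 for calcium- or sodium-activated channels and 0 for two-pore channels. The members with an unadjusted p under 0.05 were then 3, 0, 1, 0 and 1 in these classes, taken in the same order, and 1 of the other genes.

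**Figure D2:**
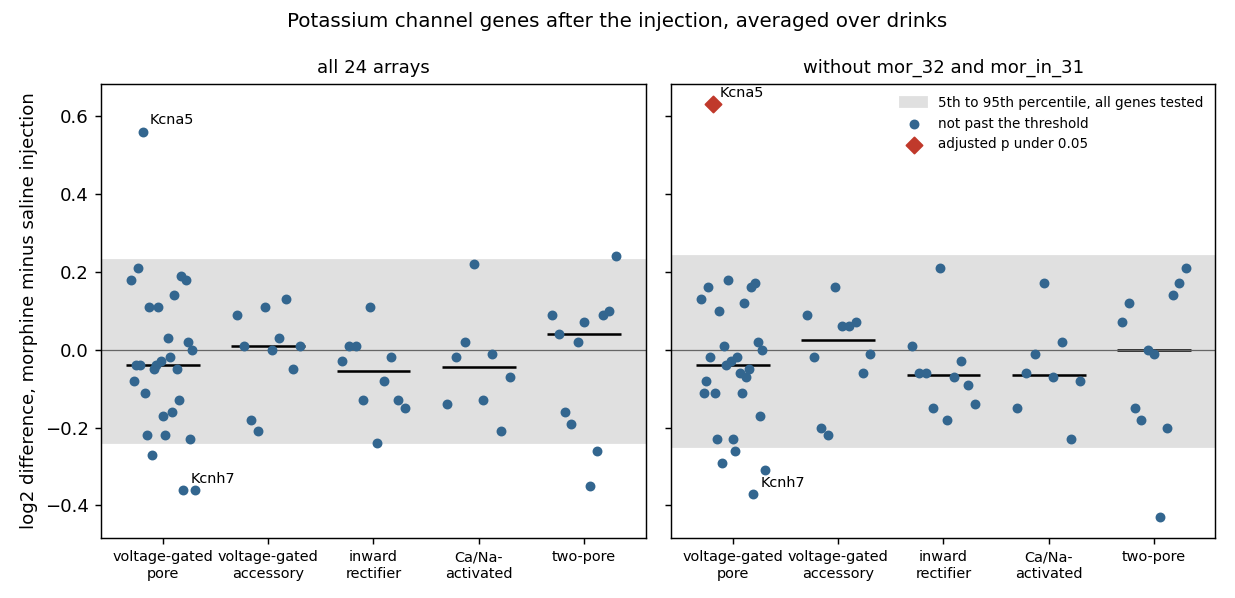
Log2 difference of morphine minus saline injection, averaged over drinks, for the 68 tested members in 5 channel classes, with all 24 arrays on the left and without mor_32 and mor_in_31 on the right. Points are genes, lines are class medians and the grey band spans the 5th to the 95th percentile of all 13748 genes; Kcna5 at 0.63 on the right is the only member past the threshold.

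Among the pore-forming subunits of voltage-gated channels, 0 of 29 were called with all arrays in the averaged injection comparison, and 5 had an unadjusted p under 0.05. The class median was -0.04, against 0 over all genes, and single genes ran from -0.36 to 0.56. Kcnh7 encodes a channel of the ether-a-go-go-related (Erg) family and had the smallest p of the set. It stood at 8.74, 9.17 and 9.72 in MOR_MOR arrays, against 9.17, 9.62 and 10.21 in MOR_SAL arrays. The MOR_MOR array was the lower on 6 of 6 chips although the groups overlapped. In morphine drinkers 9 of the 70 members had 1 direction on all 6 chips, against 5.46% of all genes, and in saccharin drinkers 3 did, against 4.75%. The difference was -0.49 (SE 0.173, adjusted p = 0.586) in morphine drinkers. In saccharin drinkers the values were 8.62, 9.29 and 9.84 in SACH_MOR arrays, against 8.77, 9.56 and 10.00 in SACH_SAL arrays, and these groups overlapped widely. The averaged difference was -0.36 (SE 0.122, adjusted p = 0.338), and -0.37 (SE 0.117, adjusted p = 0.26) without the 2 arrays.

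Kcnc1, a fast-spiking Kv3 channel gene typical of parvalbumin interneurons, averaged 11.38 ± 0.24 in MOR_MOR, 11.66 ± 0.14 in MOR_SAL, 11.40 ± 0.258 in SACH_MOR and 11.57 ± 0.261 in SACH_SAL arrays (SD, n = 6 each). The MOR_MOR array was the lower on 6 of 6 chips and the groups overlapped. Its averaged injection difference was -0.22 (SE 0.0834, adjusted p = 0.432 in limma). A second probe of Kcnc1, above the filter but not used, gave 0.05 for the same difference. Kcnh2 encodes another Erg channel. It stood at 9.31, 9.60 and 9.70 in SACH_MOR arrays, against 9.47, 9.82 and 10.13 in SACH_SAL arrays, with overlap. The difference was -0.27 (SE 0.116, adjusted p = 0.61), the smallest p of its class in saccharin drinkers. Its averaged injection difference was -0.16 with all arrays and -0.11 without mor_in_31 and mor_32. Its 4 probes gave averaged injection differences of -0.41, -0.16, -0.10 and 0.20, so they did not share a direction.

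None of the Kv1 and Kv4 genes known from medium spiny neurons was called for the injection. Kcna2, a Kv1 channel gene, averaged 10.39 ± 0.27 in MOR_MOR, 10.46 ± 0.183 in MOR_SAL, 10.38 ± 0.255 in SACH_MOR and 10.39 ± 0.139 in SACH_SAL arrays (SD, n = 6 each). Its averaged injection difference was -0.04 (SE 0.0936). Kcna1 and Kcna4, also of the Kv1 family, differed by 0.18 (SE 0.167) and -0.04 (SE 0.107). Kcnd2, which encodes the A-type channel Kv4.2, differed by -0.04 (SE 0.0822) around group means of 12.63 to 12.75.

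Of the accessory subunits, 0 of 10 were called, 0 had an unadjusted p under 0.05 in the averaged injection comparison in limma, and the class median was 0.01 in a range of -0.21 to 0.13. Kcnab1, the gene of a Kv1 beta subunit, averaged 13.87 ± 0.469 in MOR_MOR, 13.88 ± 0.449 in MOR_SAL, 14.12 ± 0.27 in SACH_MOR and 13.92 ± 0.307 in SACH_SAL arrays (SD, n = 6 each), a difference of 0.09 (SE 0.136). Kcnip2, whose protein is a partner of Kv4 channels, differed by 0.13 (SE 0.133), and by 0.07 without mor_in_31 and mor_32. The smallest p of the class was that of Kcne1, a single-pass subunit gene, at -0.21 (SE 0.189, adjusted p = 0.846). That value rested on sach_10, and without it the difference was -0.05 (SE 0.121, adjusted p = 0.958 in limma).

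Inward rectifiers showed no call either, and their differences leaned to one side in saccharin drinkers. There 9 of the 10 tested members were negative, with a class median of -0.16 against -0.01 over all genes, and 1 had an unadjusted p under 0.05. Of all 13748 genes, 7124 were negative there. The class median was -0.08 without sach_in_11, -0.10 without sach_3 and -0.25 without sach_10. Scaling to a common median moved it to -0.21 and the median of all genes to -0.073. In morphine drinkers 3 of 10 were negative, with a class median of 0.09. Averaged over drinks the median was -0.06 in a range of -0.24 to 0.11, against a median of 0 over all genes, and 0 of 10 had an unadjusted p under 0.05.

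Kcnj16, the gene of Kir5.1, which joins Kir4.1 in glia, had the largest difference of the class within each drink with all arrays. It stood at 7.69, 8.23 and 8.73 in SACH_MOR arrays, against 8.41, 8.70 and 9.12 in SACH_SAL arrays. The 2 groups overlapped, and the injected array was the lower on 5 of 6 chips. The difference was -0.52 (SE 0.182, adjusted p = 0.47 in limma). In morphine drinkers it stood at 8.26, 8.81 and 9.21 in MOR_MOR arrays, against 8.16, 8.59 and 8.75 in MOR_SAL arrays, and the injected array was the higher on 6 of 6 chips, by 0.05 to 0.55. That difference was 0.27 (SE 0.182, adjusted p = 0.899). The difference between the 2 responses was 0.79 (SE 0.258, adjusted p = 0.939), and 0.75 (adjusted p = 0.714) without mor_in_31 and mor_32, so the contrast between drinkers did not pass the test. A single probe represented Kcnj16.

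The G protein-gated channels, the family members that opioid receptors act on through G proteins, were measured by 3 tested genes. Kcnj3, the gene of GIRK1, stood at 7.25, 7.94 and 8.41 in SACH_MOR arrays, against 7.96, 8.16 and 8.55 in SACH_SAL arrays, and the groups overlapped. The difference was -0.30 (SE 0.19, adjusted p = 0.753) in saccharin drinkers and -0.17 (SE 0.19, adjusted p = 0.958) in morphine drinkers. The value in morphine drinkers rested on mor_32, since it was -0.07 (SE 0.129, adjusted p = 0.952) without mor_in_31 and mor_32 and 0.03 (SE 0.152, adjusted p = 0.988) without mor_32 alone. Kcnj6, the gene of GIRK2, averaged 8.78 ± 0.514 in MOR_MOR, 8.63 ± 0.524 in MOR_SAL, 8.43 ± 0.365 in SACH_MOR and 8.61 ± 0.514 in SACH_SAL arrays (SD, n = 6 each), with differences of -0.18 (SE 0.254) in saccharin drinkers and 0.14 (SE 0.254) in morphine drinkers. For Kcnj6, 4 probes passed the filter, and their averaged injection differences ran from -0.26 to -0.02. Kcnj9, the gene of GIRK3, differed by -0.16 (SE 0.182) and -0.14 (SE 0.182). Kcnj5, the gene of GIRK4, was below the filter at a mean of 6.55 and was not tested.

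Of the strong rectifiers, Kcnj2 (Kir2.1) and Kcnj4 (Kir2.3) differed by 0.11 (SE 0.101) and -0.08 (SE 0.13) in the averaged injection comparison. The averaged difference of Kcnj2 was 0.21 (SE 0.0712, adjusted p = 0.336 in limma) with mor_in_31 and mor_32 left out. In morphine drinkers it was 0.21 (adjusted p = 0.899) with all arrays. Among morphine drinkers without the 2 arrays, Kcnj2 ranged from 7.76 to 8.25 in MOR_MOR arrays against 7.29 to 7.98 in MOR_SAL arrays, a difference of 0.41 with an adjusted p of 0.306 in limma. Those ranges overlapped. The pore genes of ATP-sensitive channels, Kcnj8 (Kir6.1) and Kcnj11 (Kir6.2), differed by -0.13 (SE 0.138) and -0.03 (SE 0.109).

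**Figure D3:**
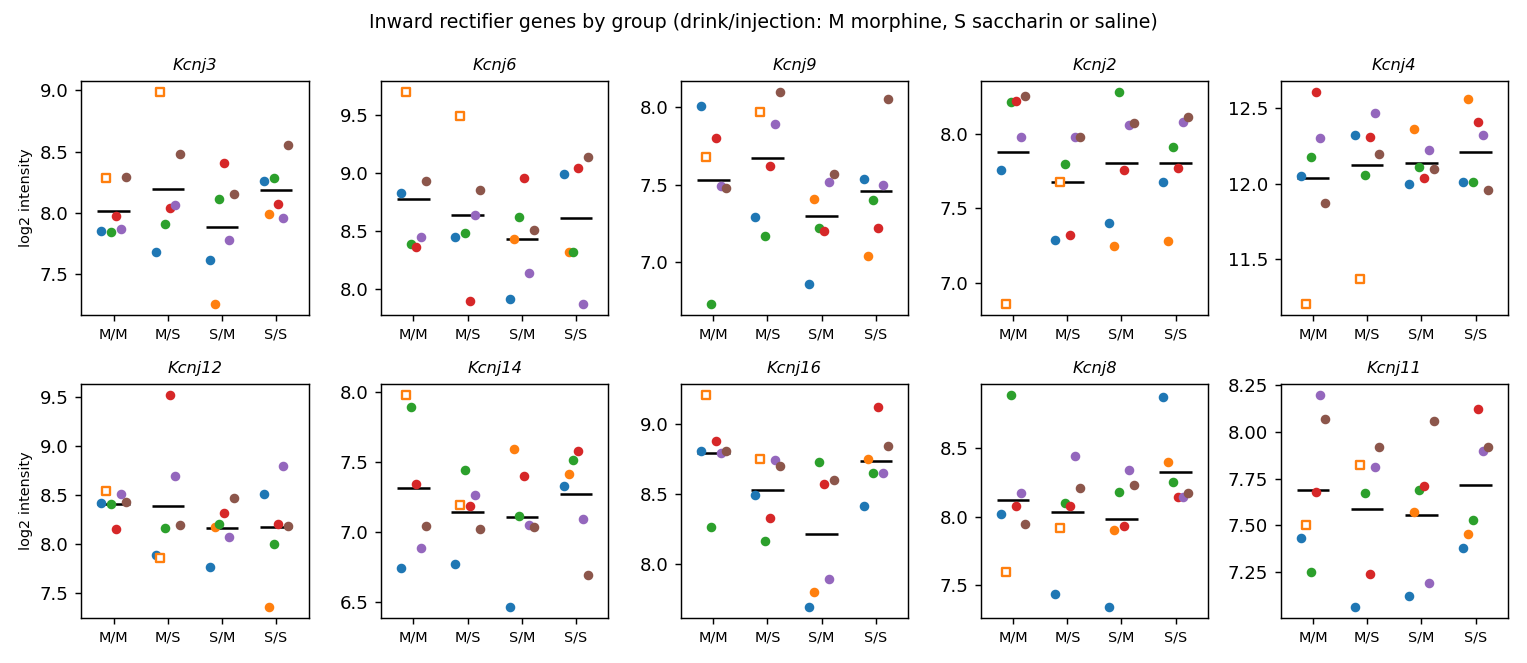
Log2 intensity (vertical axes, scaled per gene) of the 10 tested inward rectifier genes on each array, by drink and injection; colours mark the 6 chips as in the plot of Kcna5, lines are group means over 6 arrays and open squares are mor_in_31 and mor_32. The S/M group of Kcnj16 averages 8.21, against 8.74 in S/S, and for every gene the injected and saline groups of each drink overlap.

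In the calcium- or sodium-activated class, 0 of 8 members were called and 0 had an unadjusted p under 0.05 in the averaged injection comparison in limma. The class median was -0.04 in a range of -0.21 to 0.22. Kcnma1, the gene of the large-conductance BK channel, averaged 11.34 ± 0.182 in MOR_MOR, 11.57 ± 0.265 in MOR_SAL, 11.29 ± 0.182 in SACH_MOR and 11.34 ± 0.304 in SACH_SAL arrays (SD, n = 6 each), and its difference was -0.14 (SE 0.0913, adjusted p = 0.757). Its other 2 probes gave -0.17 and -0.10. Its neuronal beta subunit gene Kcnmb4 differed by -0.02 (SE 0.0944). Of the small-conductance SK genes, Kcnn2 differed by 0.22 (SE 0.125, adjusted p = 0.704) and Kcnn3 by -0.13 (SE 0.168), or by -0.07 without mor_in_31 and mor_32. Kcnt1, the gene of a sodium-activated channel, differed by -0.01 (SE 0.123).

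Among the two-pore channels 0 of 11 were called and 2 had an unadjusted p under 0.05 in the averaged injection comparison, and the class median was 0.04 in a range of -0.35 to 0.24. Kcnk13, the gene of the leak channel THIK-1, the main leak channel of microglia, stood at 9.84, 10.30 and 10.49 in MOR_MOR arrays, against 10.18, 10.54 and 10.78 in MOR_SAL arrays. It stood at 10.08, 10.38 and 10.70 in SACH_MOR arrays, against 10.42, 10.55 and 10.59 in SACH_SAL arrays. Groups overlapped in both pairs, and the MOR_MOR array was the lower on 6 of 6 chips. The averaged difference was -0.19 (SE 0.0712, adjusted p = 0.426), and -0.18 (SE 0.0658, adjusted p = 0.376) without the 2 arrays. The microglial marker Cx3cr1 fell by 0.49 in the same comparison with all arrays (adjusted p = 0.00977 in limma), the only 1 of 6 microglial markers that passed. The median difference of the 6 markers was -0.09 with all arrays and -0.01 without the 2 arrays. Their mean was 10.52 on mor_32 and 9.85 on mor_in_31. Apart from the 2 arrays, the mean of those markers ranged from 9.91 to 10.29 in MOR_MOR, 10 to 10.38 in MOR_SAL, 9.97 to 10.09 in SACH_MOR and 9.75 to 10.28 in SACH_SAL arrays, and its part in the Kcnk13 values was not tested.

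Kcnk9, the gene of the acid-sensitive leak channel TASK-3, stood at 6.93, 7.30 and 7.60 in MOR_MOR arrays, against 6.67, 6.87 and 7.16 in MOR_SAL arrays. The groups overlapped. The difference was 0.39 (SE 0.142, adjusted p = 0.615) in morphine drinkers and 0.09 (SE 0.142, adjusted p = 0.919) in saccharin drinkers. Its mean of 7.09 lay just above the filter, which stood at 7.05. Kcnk1 (TWIK-1), Kcnk2 (TREK-1) and Kcnk3 (TASK-1) differed by 0.09 (SE 0.0622), 0.02 (SE 0.136) and 0.07 (SE 0.145) in the averaged comparison. That of Kcnk3 was -0.01 without mor_in_31 and mor_32.

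**Figure D4:**
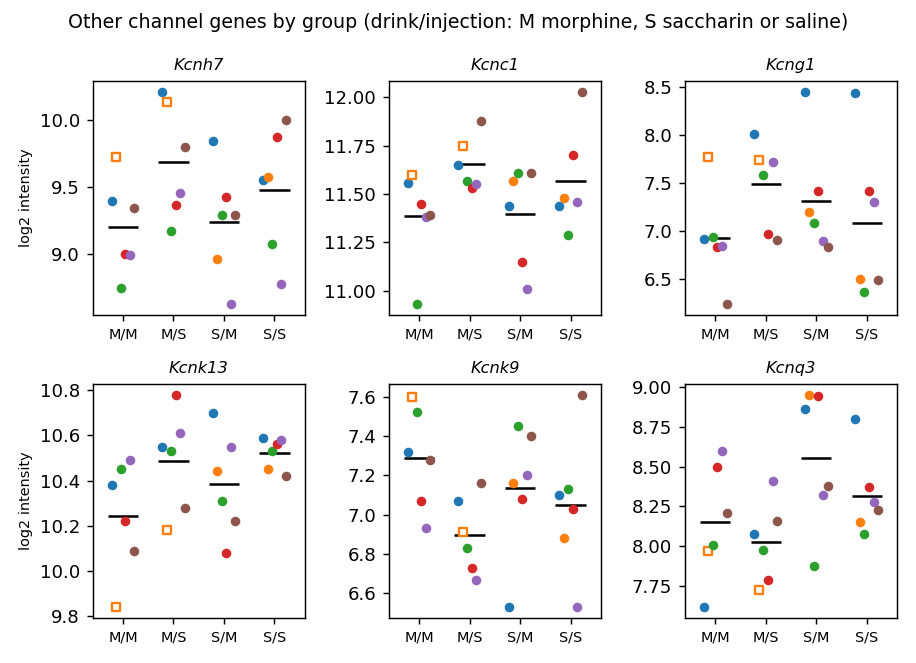
Log2 intensity (vertical axes, scaled per gene) of 6 further channel genes by drink and injection, with colours for the 6 chips, lines for group means over 6 arrays and open squares for mor_in_31 and mor_32. Kcnh7 averages 9.20 in M/M against 9.69 in M/S, and for every gene the injected and saline groups of each drink overlap.

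Outside the channel subunits, Kcnrg stood at 7.13, 7.34 and 7.68 in SACH_MOR arrays, against 7.30, 7.73 and 8.87 in SACH_SAL arrays. The injected array was the lower on 6 of 6 chips and the groups overlapped. The difference was -0.53 (SE 0.177, adjusted p = 0.439 in limma), the smallest unadjusted p of the 70 members in saccharin drinkers, and it was -0.03 (SE 0.177) in morphine drinkers. Chip 2, which held the highest SACH_SAL array, sach_10, gave -1.72, and the other 5 chips gave -0.55 to -0.12. Without sach_10 the difference in saccharin drinkers was -0.37 (SE 0.154, adjusted p = 0.601 in limma), and without chip 2 it was -0.29 (SE 0.145, adjusted p = 0.679). Kcnrg was named after its values were seen. Kcnq1ot1 averaged 9.31 ± 0.572 in MOR_MOR, 9.30 ± 0.39 in MOR_SAL, 9.22 ± 0.44 in SACH_MOR and 9.21 ± 0.274 in SACH_SAL arrays (SD, n = 6 each), so its group means lay closer together than the arrays within a group.

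Long-term drinking of morphine against saccharin gave 0 calls among the 70 members under either injection and in the average of both, as it did among all 13748 genes (0% called in each). Under saline injection 1 member had an unadjusted p under 0.05 (1.43%, against 4.58% of all genes in limma). Under morphine injection there were 2 (2.86%, against 5.5%), and averaged over injections 3 (4.29%, against 5.24%). Without mor_in_31 and mor_32 the numbers were 4, 2 and 1, against 5.35%, 5.01% and 4.19% of all genes.

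The single member under saline injection was Kcnk12, a two-pore channel gene also called THIK-2. It stood at 7.20, 7.85 and 8.12 in MOR_SAL arrays, against 7.11, 7.22 and 7.98 in SACH_SAL arrays, and the groups overlapped. The difference was 0.38 (SE 0.179, adjusted p = 0.988), and 0.23 (adjusted p = 0.933) without the 2 arrays. Kcnq3, the gene of an M-current subunit, stood at 7.62, 8.11 and 8.60 in MOR_MOR arrays, against 7.88, 8.62 and 8.95 in SACH_MOR arrays. Its drink difference averaged over injections was -0.35 (SE 0.132, adjusted p = 0.903) with all arrays and -0.28 (adjusted p = 1) without the 2. Kcnn1, an SK channel gene, differed by 0.31 (SE 0.134, adjusted p = 0.903) and by 0.13 without the 2 arrays. Kcnip1, the gene of a Kv4 partner, differed by -0.22 (SE 0.123, adjusted p = 0.903) and by -0.34 without them.

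For Kcna5 the difference between morphine and saccharin drinkers, averaged over injections, was -0.45 (SE 0.221, adjusted p = 0.903 in limma) over all arrays. Without mor_in_31 and mor_32 that difference was -0.10 (SE 0.121, adjusted p = 1). Its group means then stood at 8.93 ± 0.469 in MOR_MOR and 8.23 ± 0.433 in MOR_SAL (SD, n = 5 each), against 9.03 ± 0.298 in SACH_MOR and 8.47 ± 0.332 in SACH_SAL arrays (SD, n = 6 each). The drink difference was thus within the spread of the arrays, and most of its size came with those 2 arrays.

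Inward rectifiers again had differences of mostly one sign for drinking under morphine injection. There 9 of 10 were positive, against 7141 of all 13748 genes, with a class median of 0.17 against 0.01 over all genes, and 1 had an unadjusted p under 0.05. That one was Kcnj16, at 8.26, 8.81 and 9.21 in MOR_MOR arrays, against 7.69, 8.23 and 8.73 in SACH_MOR arrays. These groups overlapped, and the difference was 0.58 (SE 0.182, adjusted p = 0.868). This comparison uses the same SACH_MOR arrays as the injection comparison in saccharin drinkers, so the opposite signs in the 2 comparisons are not separate observations. Under saline injection 4 of 10 were positive, with a class median of -0.11. Without mor_in_31 and mor_32 the class median under morphine injection was 0.14, with 9 of 10 positive.

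For the interaction, which asks whether the injection response differed between morphine and saccharin drinkers, 0 of 70 members and 0% of all genes were called in limma. An unadjusted p under 0.05 was seen for 2 members (2.86%, against 5.24% of all genes), and for 6 without the 2 arrays (against 6.79%). The 2 were Kcnj16, given above, and Kcng1, which encodes a silent subunit that modifies other voltage-gated channels. Kcng1 stood at 6.24, 6.89 and 7.77 in MOR_MOR arrays, against 6.91, 7.65 and 8.01 in MOR_SAL arrays. It stood at 6.84, 7.14 and 8.45 in SACH_MOR arrays, against 6.37, 6.90 and 8.44 in SACH_SAL arrays. Both pairs overlapped, and the interaction was -0.79 (SE 0.359, adjusted p = 0.941). The largest interaction in size was that of Kcnk7, a two-pore channel gene whose product gives no current when expressed alone, at -0.98 with an SE of 0.595 (adjusted p = 0.953).

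Arrays mor_in_31 and mor_32 differed from the rest in many channel genes. Both lay outside the range of the other 22 arrays for 13 of the 70 members (18.6%), against 8.6% of all genes. They were below the range for 9 members (12.9%, against 4.34% of all genes) and above it for 4 (5.71%, against 4.26%). Among the markers that set these arrays apart are genes of medium spiny neurons, which were lower on them, and of cortical projection neurons and astrocytes, which were higher (12.41 and 12.49 for the mean of 8 astrocyte markers, against 11.76 to 12.24). Markers of striatal interneurons and of oligodendrocytes were lower on both. The mean of 6 interneuron markers was 10.12 on both, against 10.82 to 11.28, and that of 6 oligodendrocyte markers was 12.95 and 13.04, against 13.12 to 13.72. The part of these markers in the channel values was not tested.

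Below the range lay Kcna5, at 6.82 on mor_in_31 and 7.0 on mor_32, against 7.65 to 9.57 on the other arrays. Kcnt1 read 9.62 and 9.98, against 10.70 to 11.24, and its second probe above the filter was also below its range. Kcnj4, the gene of Kir2.3, a rectifier of forebrain neurons, read 11.20 and 11.37, against 11.87 to 12.61, likewise with its second probe below the range. Kcnab1 read 13.08 and 13.05, against 13.37 to 14.43, and 1 of its 2 other probes above the filter was below its range too. The stretch-sensitive leak channel gene Kcnk2 read 10.91 and 10.74, against 11.30 to 12.27. The remaining 4 below were Kcnh3 and Kcnh4 of the Elk family, the M-current gene Kcnq5 and Kcne1, whose 6.75 on mor_in_31 lay next to the lowest other array at 6.76. The second probes above the filter of Kcnk2, Kcnq5 and Kcne1 did not have both arrays outside the range.

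Above the range lay Kcng2, another silent Kv subunit gene, at 10.08 on mor_in_31 and 9.77 on mor_32, against 7.57 to 9.20 on the other arrays. Kcnj6 read 9.70 and 9.49, against 7.87 to 9.14. Kcnc4, a Kv3 channel gene, read 13.11 and 13.06, against 10.96 to 12.90, and Kcnn2 read 9.12 and 8.32, against 7.26 to 8.26. For Kcnj6 and Kcnc4 the other probes above the filter did not have both arrays outside the range. Both unused probes of Kcnma1 had the 2 arrays above their ranges, narrowly so for mor_in_31, at 10.90 against a highest other array of 10.89 and at 10.29 against 10.27, while the probe used had them within its range.

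**Figure D5:**
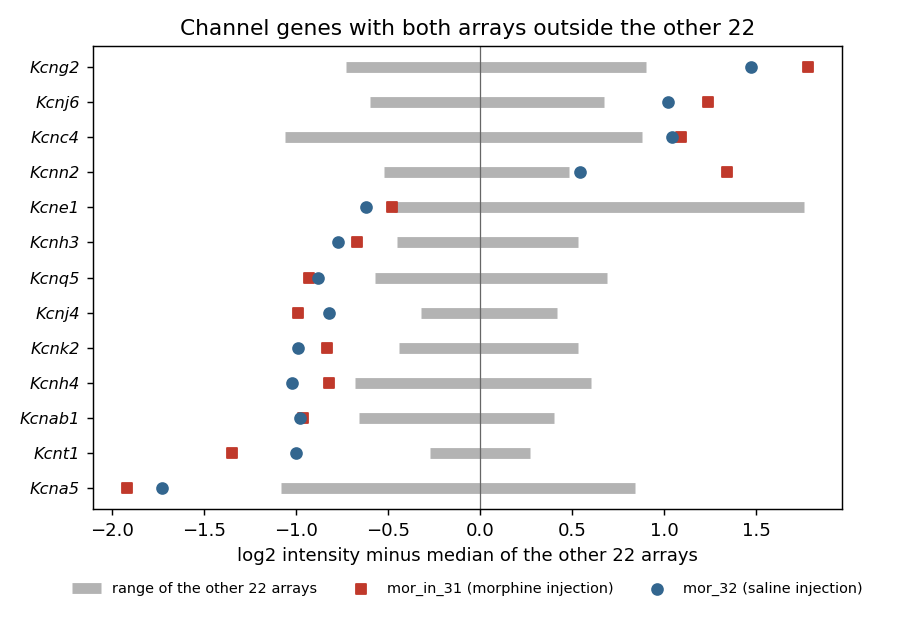
Log2 intensity minus the median of the other 22 arrays (horizontal axis) for the 13 channel genes with mor_in_31 (squares) and mor_32 (circles) both outside the range of those 22 arrays (grey bars). Kcna5 lies farthest below, at -1.92 and -1.73, and Kcng2 farthest above, at 1.78 and 1.47.

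Spread between arrays of a group was wider for channel genes than for genes at large. The median SD within groups over the 70 members was 0.364, against 0.289 over all 13748 genes, and 0.336 against 0.275 without the 2 arrays; no test was made of this. The members and all genes were not matched for level in this comparison. Among members the SD ran from 0.179 for Kcnk1, at a mean level of 12.84, to 0.754 for Kcnk7, at 7.18. That of Kcna5 was 0.616 with all arrays and 0.382 without the 2.

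Genes of potassium channel complexes that do not carry the Kcn symbol were counted from a separate list of 22, of which 18 were tested. With all arrays and without the 2 arrays, 0 of 18 were called in each of the 7 comparisons, and the list medians ranged from -0.05 to 0.03. Amigo1, which encodes an adhesion protein bound to voltage-gated channels, had unadjusted p-values of 0.0383, 0.00742 and 0.0016 for the injection in saccharin drinkers, in morphine drinkers and averaged, with an averaged difference of -0.23 (SE 0.0607, adjusted p = 0.123 in limma). Abcc8, the gene of the sulfonylurea receptor of ATP-sensitive channels, differed by 0.48 (SE 0.16, adjusted p = 0.988) between drinks under saline injection. Both were named after their values were seen.

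The 18 members below the filter were not tested. They included Kcnj5, Kcnq1, Kcnn4 and Kcnk18, and their means ran from 6.41 to 7.04, where the filter stood at 7.05. The members nearest above it were Kcnk9 at 7.09 and Kcna4 at 7.10.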

How the data were processed

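Per the labels, striatal total RNA was turned into biotinylated cRNA for 24 Illumina mouse arrays. The authors deposited the intensity of each probe, linear and not normalized between arrays, and for it the scanner software and any background subtraction are not given in the sources used here. Deposited log2 values from the authors lay within 0.0351 of quantile-normalized log2 intensities. These chose the probe of each gene and served as an alternative.

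Intensities were background-corrected by normexp with an offset of 50, put on the log2 scale and quantile-normalized in limma 3.58.1 (R 4.3.3). A probe was kept if its mean exceeded the 40th percentile over 45281 probes, which was 7.05. The platform annotation gave 34885 probes 1 symbol, 18 several and 10378 none listed. The members had 173 probes, 106 of them above the filter; 51 members had more than 1 probe. All 88 members were found in the RefSeq gene table of GRCm38.p6 under the same symbol. Precision depends on the small number of arrays.

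The limma model (lmFit, eBayes) held fixed terms for group and for chip, was fitted to all 24 arrays and gave 7 comparisons with two-sided p-values. The procedure was tested on simulated data. Named differences were those of members past the threshold, the smallest p of each class and fixed landmark genes; others are said to have been chosen after their values were seen. The members, lists and tests were chosen with earlier results of these data known. Alternatives covered background, scaling, the deposited values, filter, probes per gene, chip, groups in the fit, array weights, prior, and each array, chip 2 or the 2 chip 2 arrays of morphine drinkers left out. Promoter windows came from RefSeq. Plots used matplotlib 3.10.9 (Python 3.11.15).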

Additional observations from a re-analysis of the deposited data

Results flagged for a closer look

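In 16 of 160 groups of 6 arrays, taken over the 40 named members, 1 array lay far from the other 5 by Dixon's ratio of its gap to the group's range. Chance flags about 1 group in 20, or 5%. Of the 16, 7 were mor_in_31 or mor_32. On mor_in_31, Kcne1 read 6.75 (other MOR_MOR arrays 7.22 to 7.32), Kcnh2 8.87 (9.58 to 9.97), Kcnj2 6.86 (7.76 to 8.25), Kcnn2 9.12 (7.65 to 8.05) and Kcnt1 9.62 (10.79 to 11.16). On mor_32, Kcna4 read 7.78 (other MOR_SAL arrays 6.91 to 7.18) and Kcnip2 9.08 (9.89 to 10.38).

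In MOR_MOR there were 2 more, with Kcnc1 at 10.93 on mor_in_34 (others 11.38 to 11.60) and Kcnn3 at 7.27 on mor_in_35 (others 7.87 to 8.03). In SACH_MOR there was 1, with Kcng1 at 8.45 on sach_in_11 (others 6.84 to 7.42). The other 6 were in SACH_SAL. On sach_1, Kcna1 read 8.86 (others 8.26 to 8.43) and Kcnj8 8.87 (8.14 to 8.40). On sach_8, Kcnk12 read 7.98 (7.11 to 7.29) and Kcnk2 11.30 (11.70 to 11.86). On sach_10, Kcne1 read 8.99 (6.80 to 7.58) and Kcnk6 10.17 (9.42 to 9.56). Leaving aside the flags on mor_in_31 and mor_32, the share of groups flagged was near 5%. That comparison cannot decide on chance, because those flags were set aside after being seen and groups of different genes shared arrays. Whether anything beyond chance set the flagged arrays apart was not tested.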

How the results depend on the processing

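The number of channel genes called stayed at 0 in all 7 comparisons under the 39 alternatives run, 24 of which left out 1 array each, with 2 exceptions: the averaged injection comparison called 1 without mor_32 and mor_in_31 and 1 without chip 2, Kcna5 in both. Over the alternatives, members with an unadjusted p under 0.05 numbered 2 to 8 for the injection in saccharin drinkers, 3 to 12 in morphine drinkers and 6 to 12 averaged. With the 2 arrays left out, Kcna5 was called in 31 of 32 further settings, chosen after seeing the data, at 0.50 to 0.70; the 1 loss was without a chip term, at 0.63 (adjusted p = 0.0864 in limma), and leaving out 1 more array gave 0.55 to 0.67 (adjusted p 0.0121 to 0.0366). Calls among all genes, 95 for the averaged injection, were 22 with scaling to a common median, 57 with no chip term and 169 with array weights; for saccharin drinkers (51) they were 10 with that scaling and with only the groups of the comparison, 28 with no chip term, and 23 to 31 without any 1 of sach_1, sach_in_11, sach_in_12, sach_10, sach_3, sach_5 or sach_in_7. For morphine drinkers (9) they were 5 with that scaling, 2 with only the groups of the comparison, 18 with a trended and robust prior and 63 with array weights. Scaling to a common median moved the median interaction of all genes to 0.101. Fitting only the groups of a comparison gave no separate value for the averaged and interaction comparisons. No paired analysis was possible because the animal numbers in the titles differ between groups and pair no animals; arrays on the same chip were compared through the chip term. Signal over background was not measured here, so values of genes near the filter, such as Kcnk9, are the least certain.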
